A study of Homo sapiens with 6 samples.

Results

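This report describes the 41 genes of TGF-beta, activin and BMP signalling in MDA-MB-468-PR and in MDA-MB-468, the established line of human triple-negative breast cancer from which it was derived. The genes were listed by name, from the ligands to their receptors, the SMAD proteins, the regulators, a few target genes and the proteins that hold ligands outside the cell, and they were looked up by Entrez identifier. All 41 were present among the 28395 genes of the deposited count table. Of these, 39 had enough counts to be tested, among 13950 tested genes, and SMAD4 and SMAD9 did not.

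MDA-MB-468-PR had been made in the submitters' laboratory by keeping the parental cells in paclitaxel, which stabilises microtubules, at 3 to 4.5 nM over 2 months. The control group was 3 libraries of the parental line and the resistant group was 3 libraries of the derivative, all labelled untreated, with cells grown in DMEM with 10% fetal bovine serum. All resistant libraries therefore come from 1 derivative, and no label states that the replicates of a group grew as separate cultures, so a p-value here reflects the spread over 6 libraries and this spread may be technical. Replicate 1 of each group carried the batch label of 2020 and the other 4 libraries that of 2021.

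Ligands of this family are secreted dimers that bring together type II and type I receptor kinases at the cell surface. Type I receptors for TGF-beta and activin phosphorylate SMAD2 and SMAD3, those for BMP phosphorylate SMAD1, SMAD5 and SMAD9, and both sets bind SMAD4 and enter the nucleus. In epithelial cells the TGF-beta branch is known for slowing proliferation and for inducing matrix genes, and MDA-MB-468 is known as a line that lacks SMAD4.

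Libraries held 37889818 to 93680129 counts of captured exome fragments, and levels are given as CPM, counts relative to library size, after TMM scaling. A gene was called when its adjusted p was under 0.05 in edgeR's quasi-likelihood test with batch as a term, with Benjamini-Hochberg adjustment over the 13950 genes. Fold changes are those of this fit, so they can differ from the ratio of the group means. The 16 markers listed for basal breast epithelium also held general and luminal epithelial genes. Their sum was 10297 to 12765 CPM in control and 12726 to 15654 CPM in resistant libraries. EGFR alone gave 2908 to 7372 CPM, KRT19 1870 to 2560 CPM and KRT8 1179 to 2176 CPM. Basal genes varied, with KRT5 at 532 to 1198 CPM and KRT17 at 217 to 647 CPM. KRT14 gave 2.42 to 37.6 CPM, TP63 4.74 to 26.3 CPM and KRT6A 0.62 to 2.82 CPM. Of the 16 markers 4 were called, EGFR, LAMB3 and TP63 higher and KRT14 lower, beside 11.7% of all tested genes called. PGR had no count, ESR1 stood at 0.74 to 4.55 CPM and ERBB2 at 93.5 to 138 CPM. The 10 fibroblast markers summed to 28.6 to 34.6 CPM in control and 26.6 to 31.3 CPM in resistant libraries. COL1A1 alone gave 22.4 to 30.3 CPM, LUM, THY1 and POSTN were at 0, and none of the 3 that were tested was called. The 10 leukocyte markers summed to 8.65 to 21 and 12.1 to 18.9 CPM, with CD14 alone at 6.51 to 18.7 CPM and CD3D, MS4A1 and NKG7 at 0. The 6 endothelial markers summed to 9.58 to 26.1 and 15.8 to 66.2 CPM, with KDR alone at 6.15 to 63.8 CPM and EMCN at 0. None of the 2 leukocyte and 5 endothelial markers that were tested was called.

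Of the 39 tested members, 10 were called (25.6%), beside 11.7% of all tested genes. The members had been chosen with earlier results of these data known. TGFB1, INHBA, TGFBR2, BMPR1B, SMAD3, SKIL, FST, LTBP2 and LTBP3 were higher in the resistant libraries, 9 members beside 6.23% of all tested genes. TGFB3 was the 1 member that was lower, beside 5.48% of all tested genes. The median log2 difference over the 39 members was 0.17, and over all tested genes it was -0.0039. In a bulk culture a change in the share of cells that hold a transcript and a change in transcript per cell cannot be told apart.

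**Figure D1:**
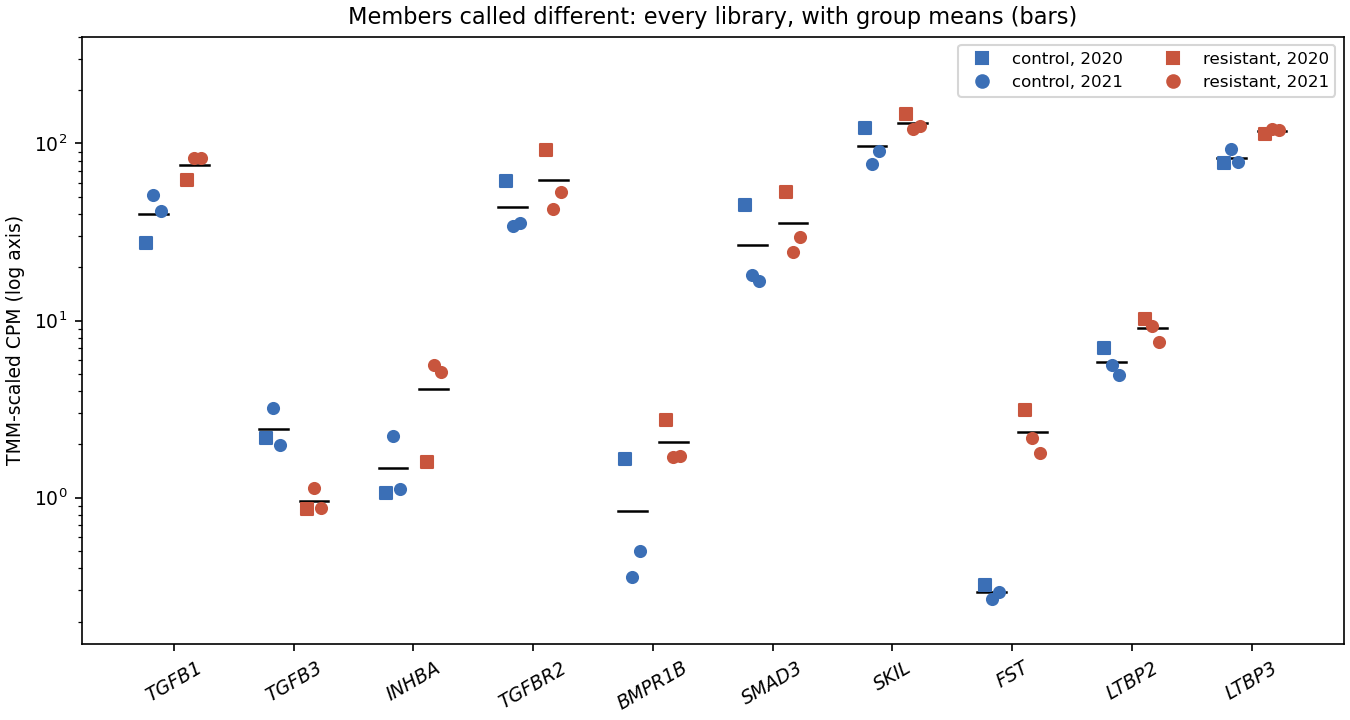
TMM-scaled CPM on a log axis for the 10 called members, with every library as a point (squares 2020, circles 2021; blue control, red resistant) and group means as bars. FST separates the groups most widely, from 0.268 to 0.323 CPM in control to 1.79 to 3.12 CPM in resistant libraries, while TGFBR2, SMAD3, SKIL and INHBA overlap between the groups.

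The 3 TGF-beta ligand genes differed in direction, TGFB1 rising, TGFB3 falling and TGFB2 staying without a call. TGFB1 (Entrez 7040, GRCh38 chromosome 19, 41330323 to 41353922, minus strand) encodes the isoform best known from immune and matrix biology. Its level was 27.5, 51.2 and 41.5 CPM in control replicates 1, 2 and 3 and 61.9, 82.8 and 82.3 CPM in resistant replicates 1, 2 and 3. All resistant libraries lay above all control libraries. The mean went from 40.1 ± 11.9 to 75.7 ± 11.9 CPM (SD, n = 3 each). The fit gave a 1.92-fold rise, a log2 difference of 0.94 ± 0.12 (SE) and an edgeR adjusted p of 0.00248. Within batches the log2 difference was 1.17 in 2020 and 0.84 in 2021.

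TGFB3 (Entrez 7043, chromosome 14, 75958097 to 75983011), the isoform known from palate and mammary development, was read at 2.16, 3.22 and 1.99 CPM in control and 0.862, 1.14 and 0.872 CPM in resistant libraries. These rest on 87, 180 and 135 counts and on 32, 76 and 84 counts, and the groups did not overlap. The mean fell 2.56-fold, from 2.46 ± 0.664 to 0.958 ± 0.158 CPM, with a log2 difference of -1.36 ± 0.27 and an edgeR adjusted p of 0.0138. Both batches gave nearly the same log2 difference, -1.29 in 2020 and -1.32 in 2021. Without resistant replicate 3 the adjusted p was 0.0912.

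TGFB2, the third isoform, was the most abundant ligand gene and gave 134, 123 and 94.6 CPM in control and 121, 98.1 and 132 CPM in resistant libraries. The groups overlapped almost fully, at means of 117 ± 20.3 and 117 ± 17.1 CPM (edgeR adjusted p = 0.992). Expressed per kilobase of coding sequence, so that the 3 genes can be set side by side, TGFB1 made up 18.6%, 31.5% and 32.7% of the summed ligand level in control libraries. In resistant libraries its share was 36.6%, 48.6% and 41.3%, above every control library. TGFB2 held 65.8% to 80.0% in control and 50.8% to 62.9% in resistant libraries, and TGFB3 1.38% to 1.88% and then 0.415% to 0.633%. These shares follow from the same counts as the tests above and were not tested again.

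The 250 bases before the start site of each of these ligand genes are shown because the genes took 3 different courses in the same cells. They are RefSeq sequence of GRCh38.p14, read 5′ to 3′ on the strand of the gene, and capitals mark matches on either strand to the SMAD box CAGACA or the TATA box core TATAAA. The windows and motifs were chosen after the values had been seen, and TGFB2 is shown although it was not called.
TGFB1, chr19:41353923-41354172, minus strand: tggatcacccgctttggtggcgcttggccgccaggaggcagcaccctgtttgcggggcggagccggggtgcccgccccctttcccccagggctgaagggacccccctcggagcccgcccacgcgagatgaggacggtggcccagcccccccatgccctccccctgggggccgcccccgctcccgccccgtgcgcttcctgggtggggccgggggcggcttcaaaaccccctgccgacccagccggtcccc
TGFB2, chr1:218345086-218345335, plus strand: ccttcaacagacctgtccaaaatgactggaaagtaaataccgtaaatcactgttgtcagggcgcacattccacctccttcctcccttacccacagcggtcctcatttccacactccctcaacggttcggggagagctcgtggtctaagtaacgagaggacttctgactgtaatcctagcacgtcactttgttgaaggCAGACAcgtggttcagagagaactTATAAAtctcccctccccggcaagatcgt
TGFB3, its second listed start, chr14:75981996-75982245, minus strand: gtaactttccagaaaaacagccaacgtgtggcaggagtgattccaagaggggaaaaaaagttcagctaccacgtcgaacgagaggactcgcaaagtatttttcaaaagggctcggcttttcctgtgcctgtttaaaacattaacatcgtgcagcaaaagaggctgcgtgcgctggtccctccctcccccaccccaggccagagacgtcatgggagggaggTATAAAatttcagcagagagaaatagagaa

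The TGFB1 window was 76.8% G and C and held neither motif, while the median of all 35116 RefSeq windows of this length was 58.0%. The TGFB2 window was 50.4% G and C, with the SMAD box beginning 53 bases and the TATA core 29 bases before the start. The TGFB3 window was 49.2% G and C, with the TATA core 30 bases before the start, and the window of its first listed start held neither motif. Over all 35116 windows, 13.6% held CAGACA and 10.7% held TATAAA on either strand. A match is a string of letters, and no binding was measured here.

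Among the activin-class ligands, INHBA was called and INHBB and GDF11 were not. INHBA (Entrez 3624, chromosome 7, 41685114 to 41705406) encodes the beta A subunit, whose homodimer is activin A. It was read at 1.07, 2.23 and 1.12 CPM in control and 1.59, 5.61 and 5.10 CPM in resistant libraries. Control replicate 2 lay above resistant replicate 1, so the groups overlapped. The mean went from 1.47 ± 0.658 to 4.10 ± 2.19 CPM. The fit gave a 2.58-fold rise, a log2 difference of 1.37 ± 0.33 and an edgeR adjusted p of 0.0308. The call was lost without control replicate 2 (adjusted p = 0.0573), resistant replicate 2 (0.0959) or resistant replicate 3 (0.134), and the log2 difference was 0.56 in 2020 and 1.73 in 2021.

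INHBB, the beta B subunit of activin B and the more abundant of the pair, gave 27.9 to 37.0 CPM in control and 30.3 to 41.5 CPM in resistant libraries (edgeR adjusted p = 0.317). Per kilobase of coding sequence, INHBA made up 2.68% to 6.63% of the summed INHBA and INHBB level in control libraries. In resistant replicate 1 it made up 3.53%, inside the control range, and in resistant replicates 2 and 3 it made up 13.1% and 13.8%. GDF11, a ligand that signals through activin receptors, ranged from 4.65 to 7.55 CPM in control and from 5.79 to 9.92 CPM in resistant libraries (adjusted p = 0.281). SARNP, a gene that overlaps GDF11 and holds 2017 to 4227 counts, was not called either.

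No BMP ligand was called, although BMP2 passed under 8 of 16 alternatives. BMP2, a ligand known from bone formation, was read at 1.02, 7.01 and 2.29 CPM in control and 3.39, 11.8 and 13.3 CPM in resistant libraries. The log2 difference of 1.52 ± 0.39 was almost the same in 2020 (1.70) and 2021 (1.64), but the 2020 libraries were lower than the 2021 libraries of the same group, the groups overlapped, and the edgeR adjusted p was 0.0563. It was 0.042 with replicates paired by number, 0.0347 with dispersions not shrunk robustly, 0.0422 with upper quartile scaling, 0.0471 from a mean of 1 CPM, 0.000278 in DESeq2 and 0.0191 in voom. Without control replicate 2 the log2 difference was 2.21 (adjusted p = 0.00429) and without control replicate 3 it was 1.12 (0.00153). BMP4 gave 4.97 to 7.17 CPM in control and 5.87 to 10.5 CPM in resistant libraries (adjusted p = 0.376). BMP7 gave 20.2 to 31.2 and 20.5 to 29 CPM (adjusted p = 0.751).

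**Figure D2:**
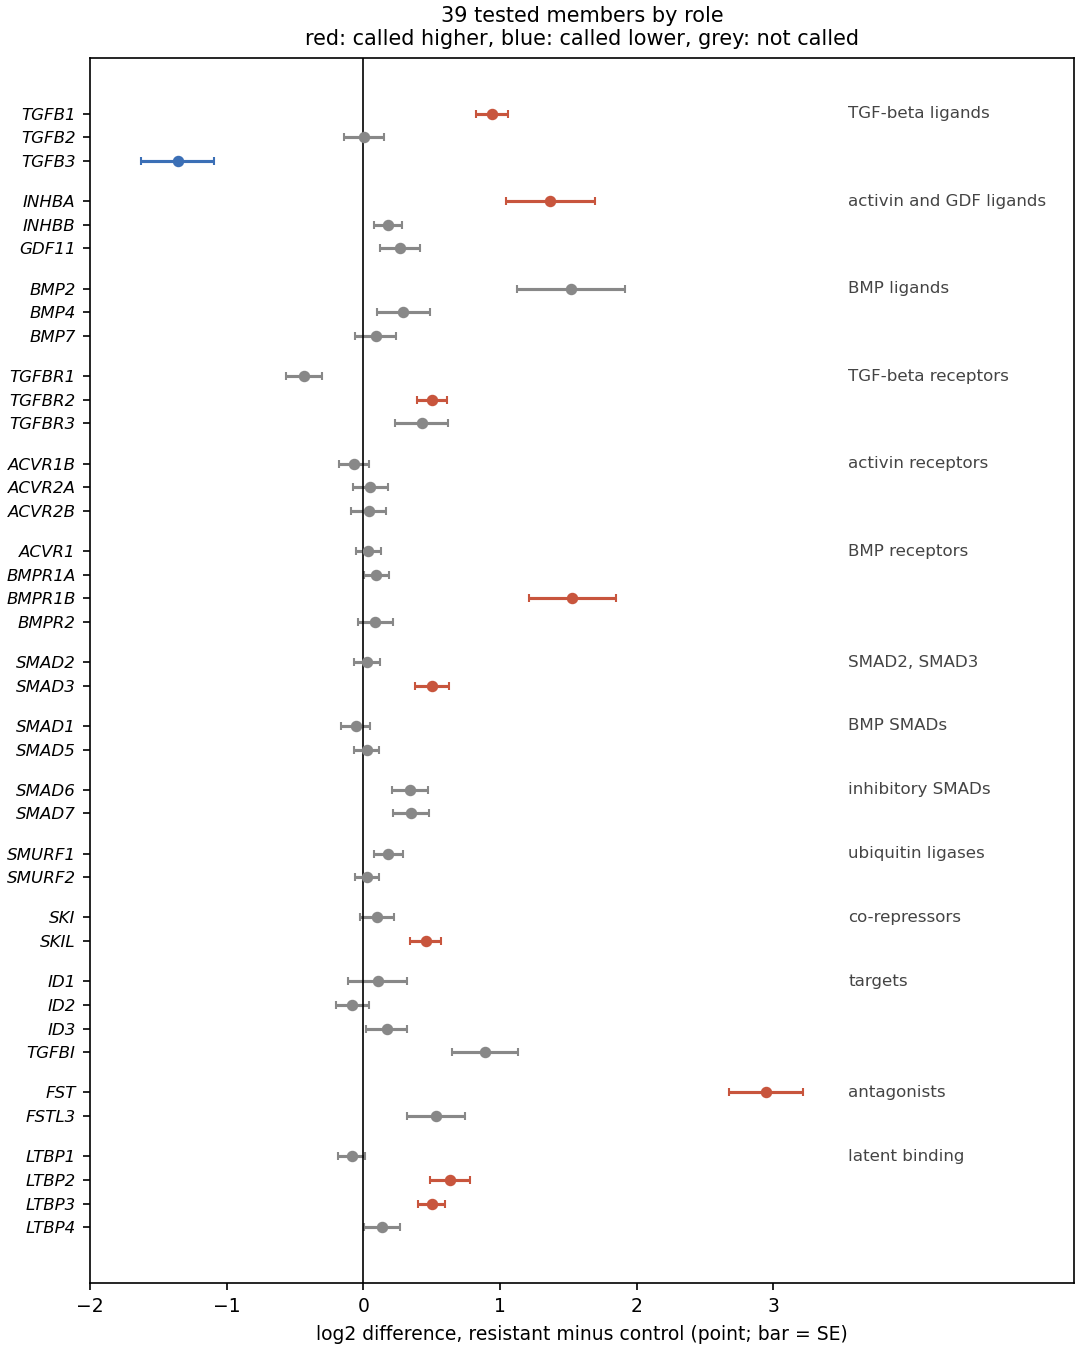
Log2 difference, resistant minus control (x axis), for the 39 tested members grouped by role, with the SE as a bar, red for called higher, blue for called lower and grey for not called. FST, BMPR1B and INHBA have the largest differences among those called higher, and TGFB3 is the single member called lower. BMP2 and TGFBI lie far from 0 with no call, with an SE of 0.39 and 0.24 beside 0.27 for the called FST.

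Of the 10 receptor genes, TGFBR2 and BMPR1B were called, both higher, beside 6.23% higher over all tested genes. TGFBR2 (Entrez 7048, chromosome 3, 30606356 to 30694142) encodes the type II receptor that binds TGF-beta first. Control libraries gave 61.1, 34.1 and 35.3 CPM and resistant libraries 92.2, 42.5 and 52.9 CPM. The groups overlapped because control replicate 1 lay above resistant replicates 2 and 3, but inside each batch the resistant libraries were higher. The means were 43.5 ± 15.2 and 62.5 ± 26.2 CPM. The fit gave a 1.42-fold rise, a log2 difference of 0.50 ± 0.11 and an edgeR adjusted p of 0.0198. Within batches the log2 difference was 0.59 in 2020 and 0.45 in 2021. The adjusted p was 0.114 without control replicate 1, 0.112 without resistant replicate 1 and 0.127 without resistant replicate 3.

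TGFBR1, the type I kinase that TGFBR2 activates, went the other way without passing. It stood at 78.7, 49.2 and 36.3 CPM in control and 59.5, 28.3 and 34.3 CPM in resistant libraries, with a log2 difference of -0.43 ± 0.13 and an edgeR adjusted p of 0.0722. By batch TGFBR1 differed by -0.40 in 2020 and -0.44 in 2021. The adjusted p was 0.0111 without a filter, 0.0356 in DESeq2 and 0.00698 without control replicate 3. TGFBR3, the co-receptor betaglycan that presents TGF-beta2 to the other receptors, ranged from 8.63 to 13.3 CPM in control and from 13.1 to 18.3 CPM in resistant libraries (adjusted p = 0.214). Between the batches that difference went from -0.02 in 2020 to 0.64 in 2021.

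The activin receptors were level between the groups. ACVR1B, the activin type I receptor, gave 13.6 to 16.2 CPM in control and 11.6 to 16.0 CPM in resistant libraries, at a log2 difference of -0.07 ± 0.11. ACVR2A, a type II receptor, gave 15.2 to 20.1 and 17.6 to 20.6 CPM, at 0.05 ± 0.13. ACVR2B, its relative, gave 8.13 to 10.9 and 8 to 10.8 CPM, at 0.04 ± 0.13. All 3 overlapped between the groups, with edgeR adjusted p from 0.741 to 0.886.

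BMPR1B (Entrez 658, chromosome 4, 94757955 to 95158450), a type I BMP receptor, was among the least abundant tested members. It was read at 1.66, 0.358 and 0.502 CPM in control and 2.75, 1.70 and 1.72 CPM in resistant libraries, from 67, 20 and 34 counts and from 102, 113 and 166 counts. Every resistant library lay above every control library, although resistant replicates 2 and 3 exceeded control replicate 1 only narrowly. The mean rose 2.89-fold by the fit, from 0.841 ± 0.717 to 2.06 ± 0.599 CPM, with a log2 difference of 1.53 ± 0.32 and an edgeR adjusted p of 0.0177. By batch the log2 difference amounted to 0.71 in 2020 and 1.93 in 2021. The call was lost without control replicate 2 (adjusted p = 0.0515), resistant replicate 2 (0.0522) or resistant replicate 3 (0.0907).

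The other BMP receptor genes were far more abundant and showed no call. BMPR1A, the other type I receptor of that pair, gave 103, 46.1 and 52.5 CPM in control and 111, 53.0 and 52 CPM in resistant libraries, so that the batches differed and the groups did not separate (edgeR adjusted p = 0.56). ACVR1, the type I receptor also called ALK2, ranged over 30.1 to 40.8 and 30.5 to 43.2 CPM (adjusted p = 0.836). BMPR2, the type II receptor, ranged over 126 to 150 and 129 to 169 CPM (adjusted p = 0.706).

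Of the SMADs that receptors phosphorylate in the TGF-beta branch, SMAD3 was called and SMAD2 was not. SMAD3 (Entrez 4088, chromosome 15, 67065602 to 67195169) binds DNA directly. It was read at 45.0, 18.1 and 16.7 CPM in control and 53.3, 24.4 and 29.5 CPM in resistant libraries. The 2020 libraries were the highest in both groups, the groups overlapped, and within each batch the resistant libraries were higher. The mean went from 26.6 ± 15.9 to 35.8 ± 15.4 CPM. The fit gave a 1.42-fold rise, a log2 difference of 0.50 ± 0.13 and an edgeR adjusted p of 0.0351. The log2 difference was 0.25 in 2020 and 0.63 in 2021. With replicates paired by number the adjusted p was 0.0554, and it was 0.0735 without control replicate 2, 0.0791 without resistant replicate 2 and 0.161 without resistant replicate 3.

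SMAD2 gave 250, 123 and 114 CPM in control and 253, 117 and 124 CPM in resistant libraries, nearly equal between groups within each batch (log2 difference 0.03 ± 0.10, edgeR adjusted p = 0.89). In the BMP branch, SMAD1 gave 64.9 to 69.6 CPM in control and 58.0 to 73.6 CPM in resistant libraries (adjusted p = 0.778). SMAD5 gave 42.6 to 45.4 and 42.2 to 47.8 CPM (adjusted p = 0.89). SMAD9, the third BMP SMAD and itself a known BMP target, had 1, 3 and 1 counts in control and 2, 37 and 21 counts in resistant libraries and was not tested. When genes were not filtered on low counts its adjusted p was 0.00387, and in the 2021 libraries alone it was 0.0325, on counts that reach at most 0.555 CPM. In the fits that left out a library and kept SMAD9, the adjusted p was 0.0311 and 0.0352 without replicate 1 of either group, 0.0843 without control replicate 2 and 0.0586 without control replicate 3.

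SMAD4 (Entrez 4089, chromosome 18, 51030213 to 51085042), the partner that both branches share, had 69, 2 and 1 counts in control and 51, 0 and 0 counts in resistant libraries. The 2020 libraries thus stood at 1.71 CPM (95% exact Poisson interval 1.33 to 2.17) in control and 1.37 CPM (1.02 to 1.81) in resistant cells. The 2021 control libraries were at 0.0358 and 0.0148 CPM. A count of 0 in resistant replicates 2 and 3 allows up to 0.0450 and 0.0312 CPM, taking 3 counts as the limit, and these intervals and limits cover counting error only. The split followed the batch and not the group, and the origin of the 2020 counts was not tested.

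Several genes beside SMAD4 had reads in all 6 libraries. ELAC1, the next listed gene on the lower-coordinate side, gave 0.566 to 0.856 CPM, and ME2 beyond it gave 84.0 to 126 CPM. MEX3C, the next on the other side, gave 61.4 to 81.8 CPM. Further out, MYO5B gave 156 to 200.2 CPM, MBD2 124 to 182 CPM and POLI 16.6 to 34.3 CPM, while DCC had no count and SKA1 a single count over all libraries. No tested gene among the 20 neighbours was called between resistant and control libraries.

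**Figure D3:**
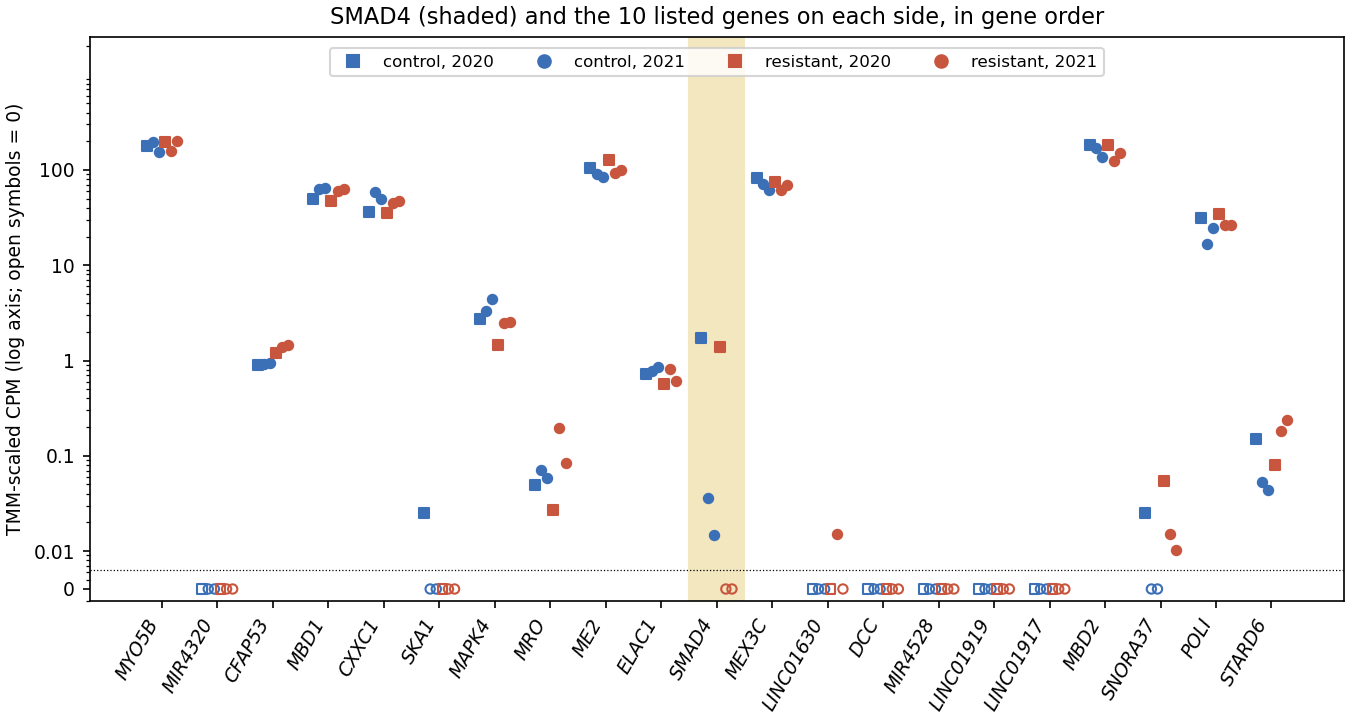
TMM-scaled CPM on a log axis for SMAD4 (shaded) and the 10 listed genes on each side in gene order, with every library as a point (squares 2020, circles 2021; blue control, red resistant; open symbols at 0). SMAD4 is at 1.37 to 1.71 CPM in the 2020 libraries and at 0.0358 CPM or less in the 2021 libraries, while ME2 and MEX3C on its sides stay between 61.4 and 126 CPM.

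The inhibitory SMADs and the ubiquitin ligases they recruit had no call. SMAD7, which blocks the TGF-beta receptors, was read at 6.51, 5.81 and 5.71 CPM in control and 8.59, 7.58 and 6.84 CPM in resistant libraries. The groups did not overlap, but the log2 difference of 0.35 ± 0.13 had an edgeR adjusted p of 0.136. SMAD6, which acts mainly on the BMP branch, gave 5.74, 13.0 and 11.7 CPM and 8.29, 13.4 and 16.1 CPM, with a log2 difference of 0.34 ± 0.13 and an adjusted p of 0.146. SMURF1, an E3 ligase that degrades SMADs and receptors, ranged over 63.3 to 77.1 and 71.1 to 83.3 CPM (adjusted p = 0.298), and its relative SMURF2 over 73.2 to 96.4 and 70.5 to 102 CPM (adjusted p = 0.875).

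SMAD6 is shown by a short stretch because it alone among 38 members with RefSeq promoter windows held the palindromic SMAD element GTCTAGAC, which begins 12 bases before the start. The stretch, with the element in capitals, was chosen after the motif search.
SMAD6, chr15:66702206-66702235, plus strand, GRCh38.p14: ccgcggagccgccaaagtGTCTAGACtggc

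The element was present in 64 of 35116 windows (0.182%). Of the 38 members with a window, 10 held CAGACA in the window of at least 1 listed start, 15 held the GC-rich SMAD element GGCGCC, 3 held the AP-1 element TGAGTCA and 9 held TATAAA, each on either strand. Over all single windows GGCGCC was present in 16.4% and TGAGTCA in 4.2%. The members had 69 listed starts, so a share by gene and a share by window do not have the same base. By window, 12 of the 69 held CAGACA, beside 13.6% of all windows, and 17 held GGCGCC, beside 16.4%. TGAGTCA was in 3 of the 69, beside 4.2%, and TATAAA in 9, beside 10.7%. These shares were not tested. BMP2, BMP7 and SKI were not matched in the promoter table.

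Of the co-repressors, SKIL was called and SKI was not. SKIL (Entrez 6498, chromosome 3, 170357715 to 170396849) encodes SnoN, a repressor of SMAD complexes and a known early TGF-beta target. It was read at 122, 76.8 and 90.7 CPM in control and 146, 121 and 125 CPM in resistant libraries, with control replicate 1 just above resistant replicate 2. The mean went from 96.5 ± 23.2 to 131 ± 13.5 CPM. The fit gave a 1.37-fold rise, a log2 difference of 0.45 ± 0.11 and an edgeR adjusted p of 0.0332. Each batch showed the rise, by a log2 of 0.26 in 2020 and 0.56 in 2021. SKIL was no longer called without control replicate 1 (adjusted p = 0.0626) or without resistant replicate 1 (0.0569), 2 (0.123) or 3 (0.148). SKI ranged over 29.9 to 43.9 CPM in control and 27.5 to 50 CPM in resistant libraries (adjusted p = 0.667).

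None of the 4 target genes in the list was called. ID1, ID2 and ID3 encode inhibitors of helix-loop-helix factors and are classical BMP targets. ID1 ranged over 5.07 to 9.19 CPM in control and 7.19 to 8.43 CPM in resistant libraries. ID2 ranged over 18.8 to 32.0 and 16.2 to 32.6 CPM, and ID3 over 34.4 to 46.3 and 32.0 to 49.8 CPM. These genes had log2 differences from -0.08 to 0.17 and edgeR adjusted p from 0.517 to 0.799.

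TGFBI, a matrix protein named for its induction by TGF-beta, was read at 15.3, 8.54 and 4.54 CPM in control and 21.8, 14.9 and 12.9 CPM in resistant libraries. Within each batch the resistant libraries were higher, and across batches control replicate 1 lay above resistant replicates 2 and 3. The log2 difference was 0.89 ± 0.24 and the edgeR adjusted p 0.0525. With replicates paired by number the adjusted p was 0.0289, with dispersions not shrunk robustly 0.0475, with upper quartile scaling 0.0438, in DESeq2 0.00368, in voom 0.0388, and without control replicate 3 it was 0.00962.

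Among the extracellular antagonists, FST had the largest difference of the 39 tested members. FST (Entrez 10468, chromosome 5, 53480629 to 53487134) encodes follistatin, which binds activin and blocks it from its receptors. It was read at 0.323, 0.268 and 0.295 CPM in control and 3.12, 2.18 and 1.79 CPM in resistant libraries, from 13, 15 and 20 counts and from 116, 145 and 172 counts. The groups lay far apart with no overlap. The mean went from 0.295 ± 0.0275 to 2.36 ± 0.688 CPM, and the fit gave a 7.7-fold rise, a log2 difference of 2.95 ± 0.27 and an edgeR adjusted p of 0.00103. The log2 difference was 3.15 in 2020 and 2.67 in 2021. FST was called under every alternative run, with an adjusted p of at most 0.0144. FSTL3, a related activin-binding protein, gave 4.15, 1.47 and 1.17 CPM in control and 5.44, 2.24 and 1.77 CPM in resistant libraries, higher in resistant cells within each batch (log2 difference 0.53 ± 0.21, adjusted p = 0.152).

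Latent TGF-beta binding proteins tether the inactive ligand to the matrix. Of their 4 genes LTBP2 and LTBP3 were called, both higher, beside 6.23% higher over all tested genes. LTBP3 (Entrez 4054, chromosome 11, 65538559 to 65558359) binds latent TGF-beta covalently. It was read at 77.5, 92.5 and 78.9 CPM in control and 112, 121 and 118 CPM in resistant libraries, without overlap. The mean rose 1.41-fold, from 83.0 ± 8.25 to 117 ± 4.26 CPM, with a log2 difference of 0.50 ± 0.10 and an edgeR adjusted p of 0.0139. The log2 difference was 0.54 in 2020 and 0.48 in 2021. The adjusted p of LTBP3 was 0.0957 without control replicate 1, and 0.0857, 0.0631 and 0.0683 without resistant replicates 1, 2 and 3.

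LTBP2 (Entrez 4053, chromosome 14, 74498183 to 74612237) is the family member that does not bind latent TGF-beta and is known as a microfibril protein. It was read at 7.03, 5.63 and 4.93 CPM in control and 10.2, 9.36 and 7.58 CPM in resistant libraries, without overlap. The mean rose 1.55-fold, from 5.86 ± 1.07 to 9.06 ± 1.35 CPM, with a log2 difference of 0.64 ± 0.15 and an edgeR adjusted p of 0.0256. By batch the rise was a log2 of 0.54 in 2020 and 0.67 in 2021. The call was lost without control replicate 1 (adjusted p = 0.0803) or without resistant replicate 1 (0.0871), 2 (0.131) or 3 (0.0737). LTBP1, the most abundant of the family, gave 199.6 to 236 CPM in control and 185 to 211 CPM in resistant libraries (adjusted p = 0.631). LTBP4 gave 12.2 to 15.1 and 13.3 to 16.1 CPM (adjusted p = 0.561).

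Levels of different members were compared per kilobase of coding sequence, as a mean over the 6 libraries. SMAD2 led with 117 CPM per kilobase, followed by ID3 with 115, TGFB2 with 88.2, ID2 with 58.5, SKIL with 55.3 and TGFB1 with 49.5. The place of SMAD2 rests on the 2020 libraries, at 178 and 181 CPM per kilobase, and in each of the 4 libraries of 2021 ID3 (89.7 to 136) lay above SMAD2 (81.2 to 88.4). The lowest tested members were INHBA with 2.18, TGFB3 with 1.38, LTBP2 with 1.37, FST with 1.29 and BMPR1B with 0.91 CPM per kilobase. Every member overlapped in its range over the libraries with the next member of the order. These ranges pool the batches, so an overlap does not show that neighbours are equal. TGFB2, for example, lay above ID2 in each of the 6 libraries. The order depends on the length used, since with the longest annotated transcript SMAD2 moved to place 22 and 7 of the first 10 members were still among the first 10.

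**Figure D4:**
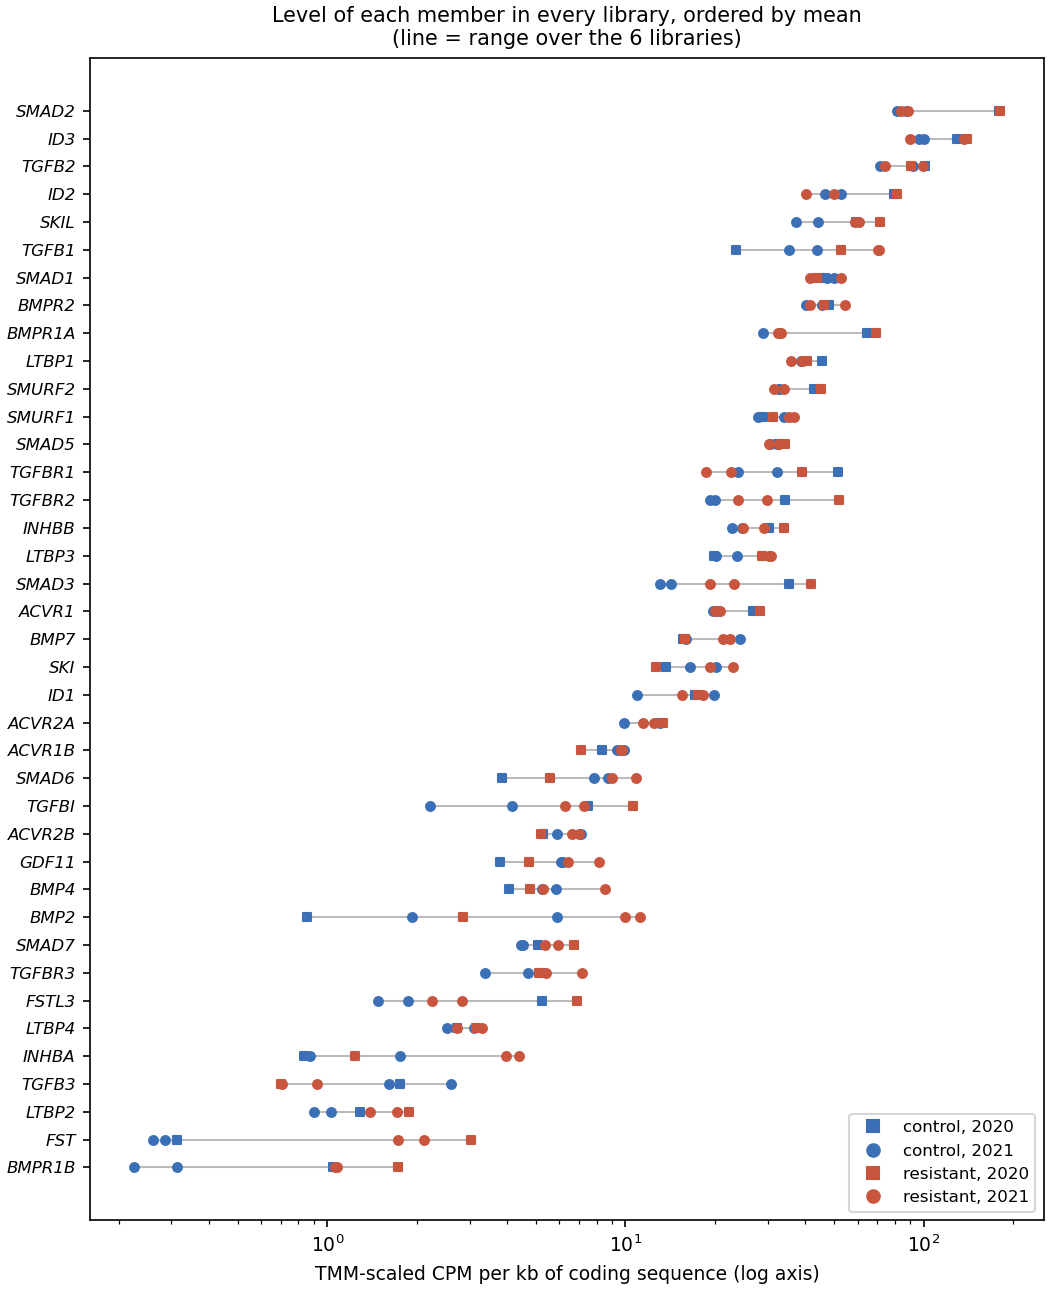
Level of each tested member in every library, as TMM-scaled CPM per kilobase of coding sequence on a log axis, ordered by the mean, with the line giving the range over the 6 libraries (squares 2020, circles 2021; blue control, red resistant). Abundant members such as SMAD2 and ID3 sit above 80 CPM per kilobase in every library, and the called members FST, LTBP2, TGFB3, INHBA and BMPR1B lie at the low end.

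More members were called between batches than between groups. Between the 2021 and 2020 libraries 18 of the 39 members were called (46.2%), beside 22.9% of all tested genes, and 12 of the 18 were higher in 2020. SMAD2 differed by a log2 of -1.08 (2021 minus 2020), BMPR1A by -1.07, SMAD3 by -1.18 and TGFBR2 by -0.88. TGFB1 was among those higher in 2021, with a log2 of 0.58. Each batch held both groups, and in both batches 28 of the 39 members had a log2 difference above 0 between resistant and control (71.8%, beside 34.9% of all tested genes). Groups did not overlap with resistant above for 6 members (15.4%, beside 10.7%) and with resistant below for 1 member (2.56%, beside 10.2%).

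No member's resistant effect was called different between the batches. The edgeR test of the group by batch term called 0 of 13950 genes, with 187 genes (1.34%) and 0 members at an unadjusted p under 0.05. It leaves 2 residual degrees of freedom, since 2020 has 1 library per group. Without a batch term, FST alone among the members was called, and the adjusted p was 0.0919 for TGFB1 and 0.0577 for TGFB3.

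**Figure D5:**
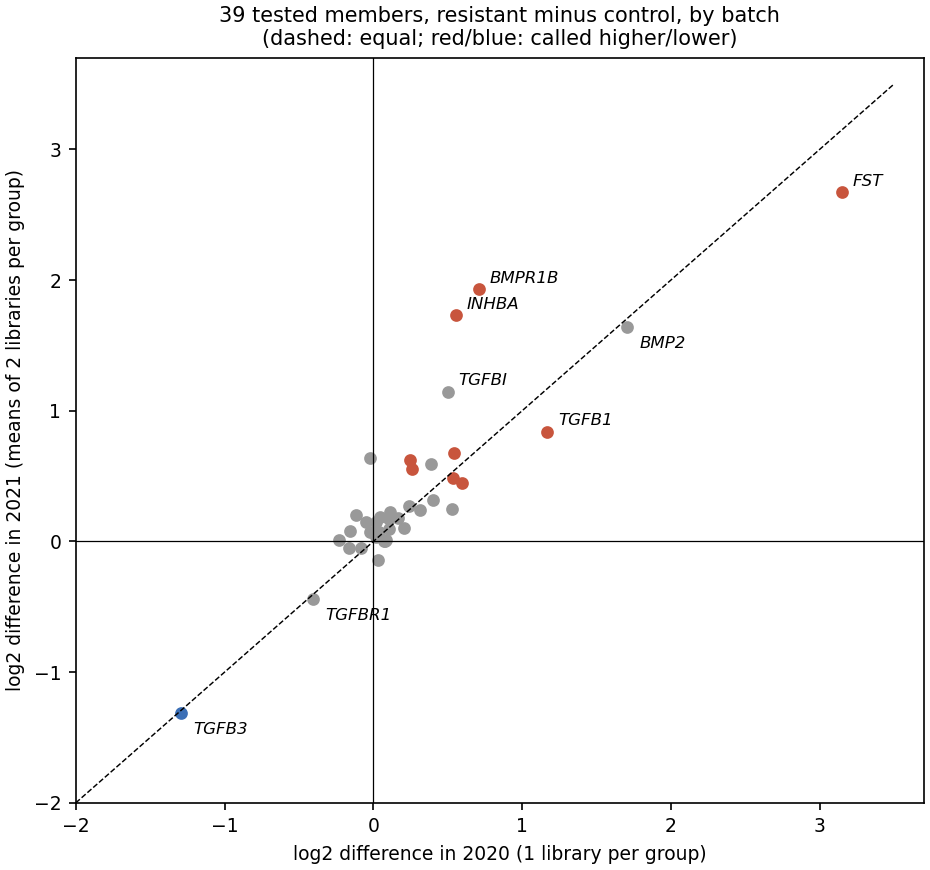
Log2 difference, resistant minus control, of each of the 39 tested members in the 2020 batch (x axis, 1 library per group) and in the 2021 batch (y axis, means of 2 libraries per group), with the line of equality dashed (red called higher, blue called lower, grey not called). TGFB3 lies on the line at -1.29 and -1.32, FST lies at 3.15 and 2.67, and INHBA and BMPR1B lie above the line.

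The genes around each called member on its chromosome were also read. Over the 20 tested genes around each called member, 10 on each side, the median log2 difference ranged from -0.26 around LTBP3 to 0.21 around BMPR1B. Around TGFB1, TGFB3 and SMAD3 no neighbour was called. The largest number called was 3 of 20, beside 11.7% of all tested genes, around SKIL, all higher, and around FST, where 2 were higher and 1 lower. Around INHBA and around BMPR1B 2 neighbours were higher and none was lower. TGFB3 and LTBP2, which moved in opposite directions, lie on the same arm of chromosome 14.

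The rest of the pathway was read from 7 further lists, of which those for activation of latent ligand and for TGF-beta targets held most calls. All of these lists were written with earlier results of these data known. Their shares beside those of all tested genes are therefore description and no test of an excess. Among 19 genes of latent TGF-beta activation and microfibrils, 16 were tested, 6 were higher and none was lower, with a median log2 difference of 0.45, beside 6.23% higher and a median of -0.0039 over all tested genes. FBN1, the gene of fibrillin-1, to whose microfibrils latent complexes attach, went from 4.10 ± 0.335 to 21.4 ± 5.04 CPM, 5.17-fold (edgeR adjusted p = 0.000654). MMP2, a gelatinase, went from 10.7 ± 2.90 to 18.5 ± 1.16 CPM (1.74-fold, adjusted p = 0.0205), and PLAT, tissue plasminogen activator, from 0.765 ± 0.241 to 1.52 ± 0.363 CPM (1.98-fold, adjusted p = 0.0346). FBN1 kept its call under every alternative run, whereas MMP2 lost it without replicate 1 of either group or without the third resistant replicate, and PLAT without each single library other than control replicate 3 (adjusted p 0.0753 to 0.136) and with replicates paired by number (0.0631). The remaining calls were ITGB1, ITGB8 and MMP14, named after their values were seen: an integrin chain of broad use, an integrin chain that binds latent TGF-beta, and a membrane protease.

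Of 45 genes known to respond to TGF-beta, 35 were tested, 8 were higher and none was lower, beside 6.23% higher and 5.48% lower over all tested genes. The median log2 difference of the list was 0.42, and over all tested genes it was -0.0039. This list too was written with earlier results known. These 8 include the members SKIL, LTBP2 and LTBP3 and, again, MMP2. COL4A1, a basement membrane collagen, went from 27.9 ± 7.91 to 118 ± 44.9 CPM, 4.02-fold (edgeR adjusted p = 0.00367), and kept its call under every alternative run. FN1, fibronectin, was read at 1153, 373 and 555 CPM in control and 2113, 1598 and 795 CPM in resistant libraries, with overlap, and rose 2.30-fold (adjusted p = 0.0395). The adjusted p of FN1 was 0.0862 with replicates paired by number, 0.126 without a filter and 0.0969 in the 2021 libraries alone, and it was 0.0817 to 0.122 leaving out each control replicate in turn or resistant replicate 1. The other 27 tested genes of this list had no call.

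Of 24 BMP target genes, 13 were tested and 1 was higher, beside 6.23% higher over all tested genes. This was NOG, which encodes the BMP antagonist noggin, at 0.149, 0.179 and 0.325 CPM in control and 0.835, 0.915 and 0.467 CPM in resistant libraries (3.23-fold, edgeR adjusted p = 0.0392), named after its value was seen. The adjusted p of NOG was 0.071 with replicates paired by number, 0.0581 in voom, 0.143 in the 2021 libraries alone and 0.0512 to 0.164 leaving out each library other than control replicate 3. NOG was also the single call among 15 extracellular inhibitors, of which 6 were tested, beside 11.7% of all tested genes called. TWSG1, the most abundant of those inhibitors, gave 54.5 ± 3.36 and 47.3 ± 3.17 CPM (adjusted p = 0.206), and GATA3, the most abundant tested BMP target, gave 119 ± 43.6 and 116 ± 59.6 CPM (adjusted p = 0.667).

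In the remaining lists the shares called were near or below the 11.7% of all tested genes. Of 32 intracellular regulators, 31 were tested, 1 was higher and 2 were lower, with a median log2 difference of -0.02. WWP1, a ubiquitin ligase, rose from 71.8 ± 6.12 to 95.9 ± 15.9 CPM (edgeR adjusted p = 0.0233). The deubiquitinase genes USP9X and USP11 were lower, from 851 ± 99.5 to 542 ± 82.5 CPM (1.57-fold, adjusted p = 0.0215) and from 124 ± 26.5 to 83.7 ± 6.43 CPM (1.48-fold, adjusted p = 0.0247). These 3 calls were lost without replicate 1 of either group or without resistant replicate 2, and for WWP1 and USP11 also without resistant replicate 3 (adjusted p 0.0611 to 0.193). No further ligand was called of 24 listed and 11 tested, nor any further receptor or co-receptor of 11 listed and 6 tested, with 3 at no count. Under each of 6 of 16 alternatives 1 of these receptors was called higher. These were upper quartile scaling, a mean of at least 1 CPM, DESeq2, the 2021 libraries alone, and leaving out replicate 1 of either group. Calls were only counted there, so the receptor need not be the same each time. BMP1, a protease listed with the ligands by name, gave 47.5 ± 9.74 and 55.2 ± 13.5 CPM, and NEO1, a receptor for BMP co-receptors, gave 68.2 ± 8.15 and 69.4 ± 8.64 CPM.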

How the data were processed

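Gene expression was measured by exome-capture RNA-seq in 6 libraries, 3 per group, each from 100 ng of RNA, with KAPA RNA HyperPrep reagents and Twist exome probes, per the labels' protocols. The deposited file holds the authors' whole-number counts per Entrez gene, not normalised. Trimmomatic 0.38, STAR 2.7.8a, featureCounts of Subread and the build GRCh38 are named per the submitters' processing notes, while strandedness, multi-mapping and annotation release are not stated there.

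Counts were filtered with filterByExpr by group, scaled by TMM and tested with edgeR 4.0.16 in R 4.3.3 (quasi-likelihood test, batch and group as terms, 3 residual degrees of freedom). Standard errors were derived from the F statistic, and log2 CPM used a prior count of 2. Robust shrinkage of the dispersions was taken after the fit had been run both ways, to keep the processing of an earlier analysis of these data, and without it BMP2 and TGFBI are called as well. The test was checked on counts simulated from the means and dispersions fitted to these same libraries, with planted differences. Such a check cannot show whether the p-values hold if the replicates are technical. Names, positions and promoters came from RefSeq tables of GRCh38.p14, which matched 27745 of 28395 identifiers. Coding and transcript lengths came from GENCODE 29, in place of the planned RefSeq protein length, since no protein table was used here.

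Members are all described by role, by a rule that gives values in every library to called members and values or ranges to the rest. From each further list it names at most 3 risen and 3 fallen genes whose mean reached 1 CPM, or its most abundant gene if none passed. Members, lists, markers and motifs were chosen with earlier results of these data known. Deviations of libraries with the same replicate number correlated across genes at 0.729, 0.143 and 0.155, the first being the pair of 2020 libraries. By a threshold of 0.1 numbers were taken as pairs, but in an alternative fit only. The main test had batch and group as terms and did not pair replicates. The crossed pairs of 2021 correlated more, at 0.57 and 0.477, so the pairing within 2021 has little ground in the values. Pairs of libraries of 1 group differed beyond sampling noise (chi-square over degrees of freedom from 70.0 to 215.3). Alternatives were scaling by the upper quartile or by DESeq2 size factors, testing without a filter or from a mean of 1 CPM, DESeq2 1.42.0, voom of limma 3.58.1, no batch term, the replicate block, the 2021 libraries alone and leaving out each library.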

Additional observations from a re-analysis of the deposited data

How the results depend on the processing

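All 10 called members kept their call with either other scaling, without a filter, from a mean of 1 CPM, under DESeq2 and voom and with dispersions not shrunk robustly, an alternative added after the data were examined that called 12 members. Members called were 1 without a batch term (all genes 362, further list genes 2 of 14) and 2 to 13 leaving out a library (all genes 617 to 1985, further list genes 5 to 14). In the 2021 libraries alone TGFBR2, SKIL, LTBP2 and LTBP3 lost their call and 6 of the 10 stayed among 7 members called (all genes 1012, further list genes 8). The replicate block, which pairs libraries by number, kept 9 of the 10 and called 11 members and 1303 genes, and changed no member call other than those of SMAD3, BMP2 and TGFBI. Leaving out replicate 1 of a group leaves 2020 with a lone library that the batch term absorbs. DESeq2 called 2204 genes and testing without a filter 2286. Of calls over all genes 53.2% were higher, and 59.9% with upper quartile scaling. Over the members' alternatives 540 values kept direction and call, 39 lost and 17 gained a call, and 28 changed sign, all with an adjusted p of at least 0.617. For TGFB2 these were -0.0037 without a filter, -0.010 under voom, -0.0041 without a batch term and -0.00012 in the replicate block, and in 2021 alone ACVR1B gave 0.0068, SMAD5 -0.0014 and SMURF2 -0.00034, and the cause was not tested. Leaving out a library gave TGFB2 -0.16 to 0.095, BMP7 -0.084 to 0.27, ACVR1B -0.12 to 0.0068, ACVR2A -0.062 to 0.16, ACVR2B -0.047 to 0.10, BMPR2 -0.060 to 0.17, SMAD2 -0.011 to 0.054, SMAD1 -0.17 to 0.031, SMAD5 -0.012 to 0.063, SMURF2 -0.011 to 0.066, SKI -0.018 to 0.20, ID1 -0.13 to 0.37, ID2 -0.16 to 0.0097 and ID3 -0.031 to 0.31. Depth limits SMAD9 and, at 13 to 20 control counts, the size of the FST difference. SMAD4 counts did not rise with depth. The 2020 control and resistant libraries, at 41343499 and 37889818 total counts, held 69 and 51 SMAD4 counts. The 2021 libraries, at 59171296 to 93680129 total counts, held at most 2 SMAD4 counts each, and the reason was not tested.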
